A study of Mus musculus with 4 samples.

Results

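The resting gene expression profile was measured in CF1 mouse embryonic fibroblasts that had been inactivated with mitomycin C and kept without added FGF2, the state in which they serve as feeder cells under human embryonic stem cells. The profile rests on the arrays at 0 ng/ml of FGF2, chosen by their label, which are 3 of the 6 arrays of the series. The remaining 3 arrays, 1 each of cells given 4, 13 and 40 ng/ml, were not used. Per the labels, the cells were expanded in medium with foetal calf serum, treated with mitomycin C and seeded on gelatine at 55000 per square centimetre. On the following day they received basic human embryonic stem cell medium made with Serum Replacement, and after 24 h in it total RNA was taken. Amplification started from 300 ng of RNA with 6 h of transcription in vitro, and the Cy3-labelled product was read on Illumina bead arrays of 46116 probes. The labels call the arrays biological replicates without saying whether they came from separate embryos, isolations or thaws. With 1 group there is no contrast between conditions, and the values below are descriptions of 3 arrays with no test.

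A feeder layer is a sheet of living, non-dividing fibroblasts that supplies stem cells with attachment proteins and secreted factors. Mitomycin C crosslinks DNA and thereby stops cell division while the cells remain metabolically active. Fibroblasts are mesenchymal cells that build the extracellular matrix from collagens, glycoproteins and proteoglycans, pull on it through actin and myosin, and release growth factors and their binding proteins. The TGF-beta family and FGF pathways are the best known of the signals that human embryonic stem cells need to stay undifferentiated.

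A probe was called detected when its detection score, which ranks it among the empty control probes of its own array, was at least 0.99 on all 3 arrays. By this rule 10762 of 46116 probes were detected (23.3%), 739 probes passed on 2 arrays, 813 on 1 array and 33802 on none. The medians over all probes, most of which were not detected, were alike at 113.0, 110.0 and 113.6 intensity units. Over the detected probes the medians were 392.65, 387.2 and 431.1 units on control replicates 1, 2 and 3. On the same arrays 11569, 11310 and 11698 probes passed. The dimmest signal that passed was 155.5, 155.6 and 160.3 units, against 104.2, 101 and 103.6 units at the middle of the negative controls. A signal near 100 units therefore lies at the level of the empty probes, and "not detected" below means only that a probe was not told apart from them. The 100 detected probes nearest the threshold had mean signals of 157.8 to 225.9 units, and the 100 nearest that missed it on 1 array had 157.7 to 194.9 units.

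The array files carry no gene symbols. Genes are named here from the number inside the probe identifier, read as an NCBI gene number after 1 or 2 leading zeros, which is an inference. It named 9841 probes of 8131 genes, and 3599 of the 10762 detected probes (33.4%) had a name, so most detected probes are not described here. Of the 8131 named genes, 3267 were detected on all 3 arrays (40.2%), 347 on 1 or 2 arrays and 4517 on none. The count of detected members of each list below is to be read beside this 40.2%. The reading could be set against genes whose activity is known. Among subunits of the ribosome, the respiratory chain and the proteasome, which every growing cell uses, 109 of 113 probes with 1 leading zero were detected (96.5%), and 34 of 51 with 2 leading zeros (66.7%). Among olfactory, vomeronasal and taste receptors and defensins, which fibroblasts are not known to use, 0 of 384 and 0 of 79 were. Ribosomal protein genes missed by a 2-zero probe included Rps18†, at 89.3, 86.6 and 87.7 units, and Rplp2†, at 128.5, 138.1 and 126.9 units. Probes of 1 gene could also differ: of 1400 genes with both kinds of probe, 272 were detected by both, 225 by the 1-zero probe alone, 216 by the 2-zero probe alone and 687 by neither. Across the 272 genes detected by both, which are not independent replicates, Spearman's rho between the mean signals of the 2 kinds was only 0.31. Whether every 2-zero probe bears the right name was not tested beyond these counts. This limit applies to the values of all genes read by such probes, among them CYTB, Col5a1, Dcn and Spp1 below. A missing signal likewise does not show that a transcript is missing. A dagger (†) marks a gene that missed detection on at least 1 array and whose brightest probe has 2 leading zeros.

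Among detected named genes the mean signal ran from 159.6 to 51918 units with a median of 479 units. The signals were concentrated at the top of this range: 91 genes exceeded 10000 units, 934 exceeded 1000 units, and the brightest 100 held 37.0% of the summed signal of the 3267 genes. A rank describes how bright a probe was and not how many transcript molecules a cell held, because probes differ in how well they bind. With that limit, the top of the ranking belonged to protein synthesis. Cytosolic ribosomal proteins took 20 of the first 30 ranks and 27 of ranks 31 to 100.

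**Figure D1:**
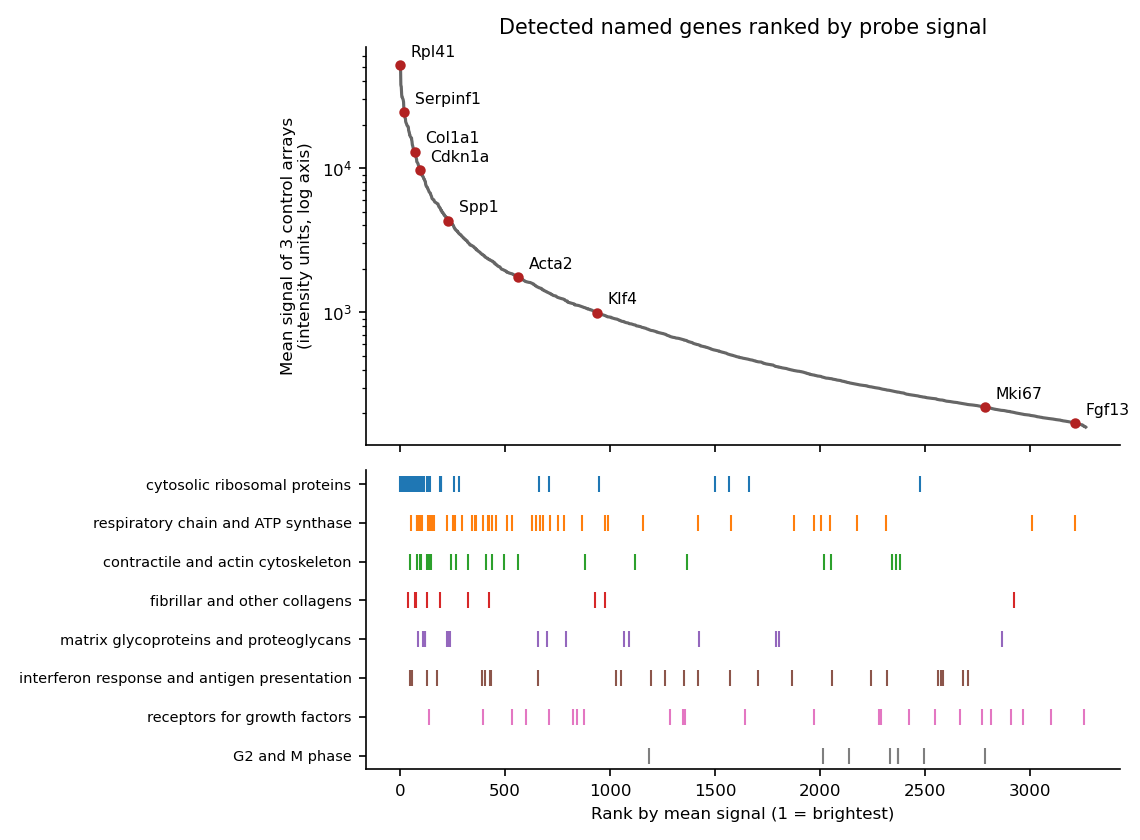
The upper panel plots the mean signal of the 3 control arrays (intensity units, log axis) against rank for the 3267 detected named genes, with 9 genes marked. In the lower panel each tick is a detected member of a gene list at its rank. Ribosomal proteins crowd the left edge, where they hold 20 of the first 30 ranks. Growth factor receptors lie along most of the axis at a median rank of 1809. G2 and M phase genes lie mostly to the right.

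The brightest named probe was that of Rpl41 (NCBI gene 67945), the smallest protein of the large ribosomal subunit, with 51691, 50810.4 and 53253 units on control replicates 1, 2 and 3. The polyubiquitin gene Ubb followed with 47781, 46503 and 45433 units. Both held the same rank on every array. Behind them stood Rps14, Rpl23 and Rps20, with 37916, 37126 and 36942 units on average. Rps27a, a fusion of ubiquitin with a ribosomal protein, averaged 31292 ± 629 units (SD, n = 3 here and below). Rpl39, Rpl27a, Rpl37, Rpl19, Rps29, Rpl24, Rps28, Rps26, Rpl38, Rps21, Rpl35, Rps2, Rps27 and Rpl36a were also among the brightest 30, between 20337 and 30597 units. Many ribosomal protein genes have near-identical processed copies in the mouse genome, and whether these probes also bind such copies was not tested.

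The other genes of the first 30 ranks carried several functions. Ftl1, the light chain of the iron store ferritin, read 30801, 31958 and 29957 units. Eef1g, a subunit of the elongation factor that brings aminoacyl-tRNA to the ribosome, averaged 30241 ± 1147 units. Hspa8, the constitutive heat shock cognate chaperone, averaged 21054 ± 1204 units and Ybx1, a protein that packages mRNA, 20462 ± 621 units. The tetraspanin Cd81, a scaffold of cell surface proteins, averaged 23965 ± 1706 units at rank 20. The brightest named gene for a secreted protein was Serpinf1 (NCBI gene 20317, chromosome 11) at rank 19. It encodes pigment epithelium-derived factor, a member of the serpin family known as an inhibitor of blood vessel growth, and read 25479.9, 24692 and 22984 units, with control replicate 3 the lowest.

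Among genes of the mitochondrial genome, whose transcripts are cut from long precursors, 7 of the 9 with a named probe were detected, all through 2-zero probes. CYTB, the cytochrome b of complex III, stood at rank 8 with 29042, 30334 and 34529 units. The complex I subunits ND4 and ND1 averaged 20029 ± 1425 and 18303 ± 2336 units. ATP6, COX2, ND5 and ND4L were dimmer, at 3194, 2613, 1263 and 441 units, and ND6† and ND2† were not detected. Nuclear subunits of the respiratory chain and ATP synthase were detected for 50 of 53 genes, beside 40.2% of all named genes, with a median rank of 430.5. The brightest were Ndufa13 of complex I at 16287 ± 496 units, Uqcrh of complex III at 11029 ± 1021 units and Cox6c of complex IV at 10977 ± 874 units. Ndufab1†, Ndufaf6 and Sdha were not detected. Of the proteasome, the protease that degrades ubiquitin-tagged proteins, 17 of 18 subunits were detected, led by Psma2 at 10928 ± 533 units, and Psma5† passed on 1 array.

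The labelled cell type was checked against marker genes. Of 11 fibroblast markers with a named probe, 10 were detected, at a median of 7056 units and a median rank of 140.5. Col1a1, the main chain of type I collagen, read 12034, 12249 and 14741 units, and Dcn, the collagen-binding proteoglycan decorin, 7383, 7979 and 9526 units. S100a4, a calcium-binding protein also called fibroblast-specific protein, read 5947.5, 5671 and 5830.3 units, and Prrx1, a homeobox factor of limb and skeletal mesenchyme, 893.3, 930.1 and 869.6 units. These 4 genes lay well above the detection limit on every array. The means of the 10 detected markers ran from 208 to 19389 units, so the dimmest lay near that limit. The marker not detected was Cd44†, a hyaluronan receptor, whose 2-zero probe averaged 111 units.

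Markers of other cell types were mostly at the level of the negative controls. None of 5 erythroid, 7 glial and melanocyte, 6 skeletal and cardiac muscle, 7 cartilage or 5 hepatocyte and yolk sac markers was detected on all 3 arrays. Mef2c, Col2a1 and Apoa1 each passed on 1 array. Of 12 leukocyte markers only Lyz2, the lysozyme of macrophages and granulocytes, was detected, at 460.8, 484.4 and 506.5 units, while Ptprc†, Cd68†, Csf1r, Itgam and Cd3e were not. Of 6 endothelial markers only Eng, a TGF-beta co-receptor that is also found on mesenchymal cells, was detected, at 268 ± 35.5 units, and Pecam1†, Emcn† and Egfl7 were not. Of 7 epithelial markers Cldn4 was detected at 163 ± 5.18 units, close to the limit, and Krt8†, Krt15, Krt18 and Krt19 were not. Of 6 bone markers only Spp1 was detected, and Runx2, Bglap and Alpl were not. The adipocyte list had 3 named members, of which Lpl and Cebpa were detected at 349 and 231 units and Fabp4 was not.

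Of 17 neuronal markers 3 were detected. Gap43, a growth cone protein, read 645.9, 658.0 and 670.1 units and was the brightest of them. The adhesion molecule Ncam1 read 315.2, 272.2 and 364.7 units and the tubulin Tubb3 177.9, 174.8 and 207.3 units. Nes†, the intermediate filament nestin, passed on 2 arrays. The 13 others, among them Map2†, Snap25†, Syt1†, Syp and Rbfox3, were not detected. Smooth muscle and pericyte markers were detected for 4 of 6 genes: the actin-binding Palld averaged 11534 ± 973 units, the smooth muscle actin Acta2 1759 ± 138 units, the myosin kinase Mylk 817 ± 32.6 units and Cald1 277 ± 24.1 units. Cnn1 and Abcc9† were not detected. Activated fibroblasts also use several of these contractile genes, so this list does not separate them from smooth muscle. Whether the RNA came from fibroblasts alone was not tested, and in bulk RNA few cells of another type cannot be told apart from little RNA per cell.

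**Figure D2:**
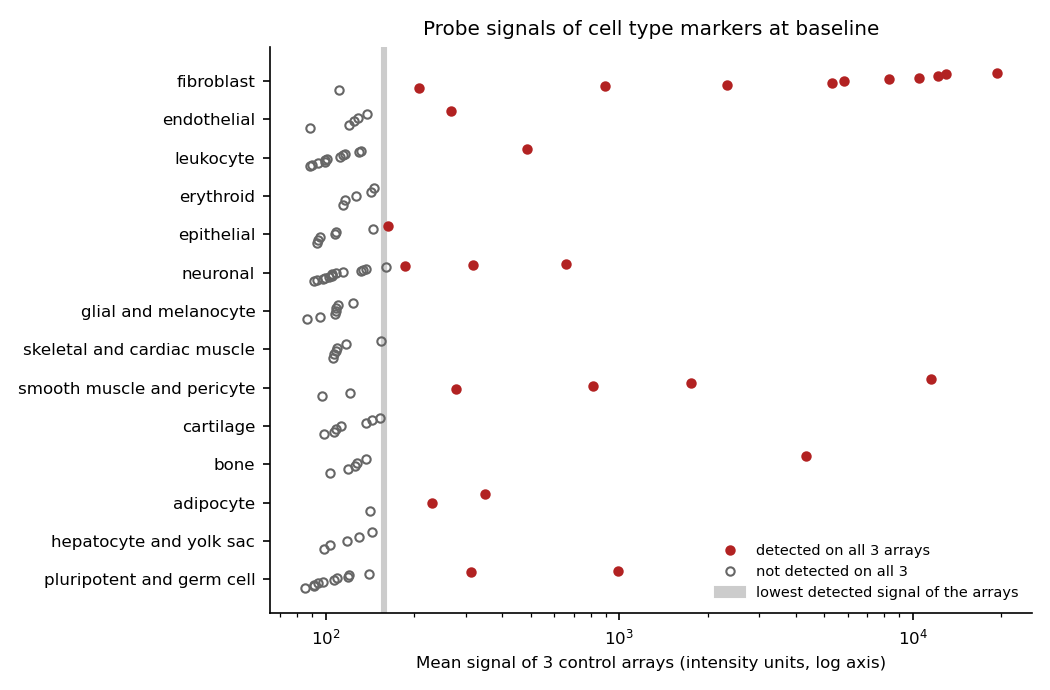
Each point is 1 marker gene at its mean signal over the 3 control arrays (intensity units, log axis), filled where the probe was detected on all 3 arrays and open otherwise, with the grey band at the lowest detected signals of 155.5 to 160.3 units. In the fibroblast row 10 of 11 points are filled and most lie above 2000 units, whereas the erythroid, glial, muscle, cartilage and hepatocyte rows hold open points only.

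Genes of the extracellular matrix stood below the ribosomal proteins in the ranking. Of the 10 detected collagens 3 lay at ranks 31 to 100 and 4 at ranks 101 to 500, and of the 16 detected matrix glycoproteins and proteoglycans 1 and 6 did. Collagen chains were detected for 10 of 21 genes (47.6%, beside 40.2% of all named genes), with a median of 4162 units among those detected. Col5a1, a regulatory chain of collagen fibrils, was the brightest at 17732.5, 18905 and 21529.6 units, at rank 38. Col6a1 and Col6a3, chains of the beaded-filament collagen that surrounds cells, averaged 12131 ± 1178 and 7379.6 ± 1080.0 units. Col3a1 read 4379.6, 5248 and 6266 units and Col1a2, the partner chain of Col1a1, 2122.5, 2447 and 2400.2 units, with control replicate 1 the lowest for both. Col8a1 and Col7a1 averaged 3026 and 1009.5 units. Col4a5, a chain of basement membranes, read 951.8, 962.0 and 939.6 units, and Col8a2 was dim at 201 units. Col2a1 and Col5a2† passed on 1 array each. The other basement membrane chains with a named probe, Col4a3, Col4a4 and Col4a6†, were not detected, nor were the cartilage chains Col9a1†, Col9a2 and Col11a1, or Col13a1, Col15a1 and Col19a1†.

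Matrix glycoproteins and proteoglycans were detected for 16 of 19 genes. Fibulin 2 (Fbln2), an elastic fibre protein, read 10683, 9084 and 11659.7 units. Thbs2, a thrombospondin of collagen assembly, averaged 8697 ± 663 units and Ccdc80, a secreted matrix protein, 8071 ± 449 units. The heparan sulphate proteoglycans agrin (Agrn) and perlecan (Hspg2), which bind FGF family ligands through their sugar chains, averaged 4453 ± 458 and 4227 ± 661 units. Spp1, which encodes osteopontin, an integrin ligand and cytokine, read 4202, 4245 and 4493 units. Mgp, an inhibitor of calcification, averaged 1497 ± 126 units. Tnxb† and Lama5 were not detected.

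Collagen processing genes were detected for 9 of 10 named members. Serpinh1, the chaperone that folds procollagen in the endoplasmic reticulum, read 16618, 15365 and 16637 units at rank 54. The crosslinking enzymes Loxl1 and Loxl2 averaged 9015.5 ± 1673 and 1562 ± 15 units. The procollagen C-proteinase Bmp1 averaged 1986 ± 148 units, its enhancer Pcolce 4657 ± 264 units, and the N-proteinase Adamts2 1362 ± 127 units. Fkbp14 and P3h1, which modify procollagen folding, averaged 2121 and 453 units, and Tll1 was not detected. Matrix proteases and their inhibitors were detected for 13 of 19 genes. The inhibitors Timp2, Timp3 and Cst3 averaged 10437 ± 1238, 4385 ± 633 and 8427 ± 725 units. The lysosomal proteases Ctsb and Ctsz averaged 12414 and 1779 units, and the aggrecan-cleaving enzymes Adamts4 and Adamts5 1114 and 962 units. Mmp12†, Mmp16†, Mmp28†, Adam10†, Adamts1† and Ctsl† were not detected, and each of these was read by a 2-zero probe.

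Genes of the contractile and actin cytoskeleton were detected for 22 of 24 members with a median of 2338 units. Actb, the cytoplasmic actin, read 16362.5, 15596 and 17426 units. Zyx, a focal adhesion protein, averaged 9205 ± 197 units, Cnn3 9516 ± 809.6 units, the caveolar protein Cav1 7385 ± 342 units, the myosin light chain Myl6 6812 ± 636 units and the tropomyosin Tpm4 6521 ± 340.1 units. The calponin Cnn1 and paxillin (Pxn†) were not detected. Integrins and adhesion receptors were detected for 17 of 23 genes. After Cd81, the tetraspanin Cd63 averaged 15415.5 ± 209.6 units, the heparan sulphate proteoglycan Gpc1 6078 ± 281 units and the collagen-binding integrin subunit Itga11 4030.5 ± 278 units. Vcam1, an adhesion molecule for leukocytes, averaged 3717 ± 187 units. Itgb5, Dag1 and Sdc2 averaged 2403, 2037 and 1517 units. The integrin subunits Itga1, Itga4†, Itga6† and Itgav†, and Cdh11, a cadherin of mesenchyme, were not detected. Tubulins and the tubulin-binding Stmn1 were detected for 9 of 11 members, led by Tubb5 at 11800.3 ± 819 units.

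Secreted signals are what a feeder layer passes to the cells above it. Of the TGF-beta family, 6 of 14 ligands or ligand-like genes were detected (42.9%, near the 40.2% of all named genes). Tgfb3 read 1948, 1757 and 2023 units and Tgfb2 856.0, 876.3 and 969.3 units, and the SD of their normalised log2 signals over the 3 arrays was 0.061 and 0.028. Gdf10 averaged 832 ± 133 units, and Gdf1 and Gdf15 303 ± 72.8 and 287 ± 47.0 units. Bmp1, grouped here by its name, is the procollagen protease described above and no ligand. Lefty1, Lefty2†, Gdf5†, Gdf6, Gdf11, Mstn, Bmp6 and Bmp8b† were not detected. Of the proteins that hold or block these ligands, 6 of 8 were detected. Ltbp2, of the latent TGF-beta binding protein family, read 13849.7, 13206.5 and 14609 units at rank 61, and Ltbp3 and Ltbp1, which anchor latent TGF-beta in the matrix, averaged 1852 ± 310.0 and 988 ± 151 units. Twsg1, a modulator of BMP binding, averaged 2096 ± 238 units, and follistatin (Fst), an activin antagonist, read 270.9, 345.5 and 313.1 units. Chrdl1 and Dand5 were not detected.

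FGF family ligands were detected for 2 of 8 genes, both dim. Fgf10, a mesenchymal ligand that signals to epithelium, read 286.5, 287.1 and 301.2 units, and Fgf13, a family member that stays inside the cell, 163.6, 157.9 and 189.4 units, next to the detection limit. Fgf4, Fgf6, Fgf7, Fgf9, Fgf18† and Fgf22 were not detected. Probes for Fgf2 itself were not analysed here. Wnt ligands and secreted modulators were detected for 3 of 11 genes (27.3%). The secreted antagonist Sfrp1 read 1235, 1309 and 1375 units, the ligand Wnt5a 282.2, 276.9 and 342.5 units and Nkd2, an inhibitor inside the cell, 320.8, 271.3 and 325.2 units, so the antagonist was the brightest probe of this list. Wnt6†, Wnt9a†, Wnt10b†, Wnt11†, Sfrp4, Frzb†, Rspo4† and Nkd1† were not detected.

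Genes of the insulin-like growth factor system were detected for 5 of 6 members. The binding protein Igfbp5 read 4084, 4992 and 5139.8 units and Igfbp4 1159, 1316 and 1724 units, both lowest on control replicate 1. Igfbp3 and Igfbp6 averaged 735 ± 142 and 360.3 ± 20.1 units. Igf1, the ligand, read 279.7, 280.5 and 279.9 units, and Igfals was not detected. Among other secreted growth factors 7 of 12 were detected (58.3%, beside 40.2% of all named genes). After Serpinf1 the heparin-binding factor pleiotrophin (Ptn) read 7488, 7016 and 8605 units. Pdgfa and Pdgfc, ligands of the platelet-derived growth factor family, averaged 608 ± 74.7 and 309.6 ± 10.8 units, and Vegfc, a lymphatic vessel factor, 444 ± 29.8 units. Cntf and Clcf1, of the interleukin 6 family, lay close to the limit at 195 and 163 units. Pdgfd†, Ereg†, Nrg1†, Dhh† and Dll4† were not detected, all read by 2-zero probes.

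Chemokines, cytokines and related secreted proteins were detected for 9 of 25 genes (36.0%, below the 40.2% of all named genes). Cxcl1, which attracts neutrophils, read 5483.5, 5924 and 5895 units and Ccl2, which attracts monocytes, 1516, 1377.5 and 1528 units. Ptx3, a pentraxin of innate immunity, read 3357, 3571 and 3422 units and Mif 3869, 3343 and 4014.5 units. The 4 genes were thus bright on each of the arrays. Cxcl14 averaged 715 ± 75.2 units, the membrane-anchored chemokine Cxcl16 253 ± 17.7 units, and Il7, a growth factor of lymphocytes, 236 ± 29.9 units. Ccl25, Ccl27a† and Il18 passed on 2 arrays and Cxcl9†, a chemokine induced by interferon gamma, on 1. Ccl19, Ccl21a†, Cxcl2, Cxcl3, Cxcl12, Il1a†, Il4 and Il12a† were among the 12 not detected.

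Receptors for growth factors were detected for 24 of 45 genes (53.3%, beside 40.2% of all named genes). The detected receptors had a median of 421 units, below the median of 479 units of all detected named genes. Il11ra1, the interleukin 11 receptor chain, read 6486, 6739 and 7288 units. Tgfbr3, the co-receptor betaglycan, averaged 2504 ± 390.5 units. The BMP and TGF-beta receptors Acvr1 and Tgfbr1 averaged 1079 ± 93.6 and 679.7 ± 67.6 units, whereas Tgfbr2 and Acvr2a passed on 1 array each. Lpar4 and Lpar1, receptors for lysophosphatidic acid, averaged 1851 ± 159.9 and 1148.5 ± 116 units, the interferon gamma receptor chain Ifngr2 1634 ± 339 units and the hedgehog transducer Smo 1119 ± 68.8 units. Pdgfrl, a secreted protein resembling a platelet-derived growth factor receptor, averaged 1358 ± 30.9 units. Of the FGF receptors, Fgfr1 passed on 2 arrays with 157.1, 148.3 and 166.0 units, and Fgfr2† and Fgfr3 were not detected. Fzd5† passed on 1 array. Acvr1b†, Erbb4†, Csf1r, Tyro3†, Il6ra† and Lifr were also not detected.

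Genes of DNA replication and mitosis were detected in part in these growth-arrested cells, at low signals. Of the S phase list 11 of 16 genes were detected (68.75%, beside 40.2% of all named genes) with a median of 315 units. Rfc2, a clamp loader subunit, averaged 826 ± 72.5 units, Uhrf1, which maintains DNA methylation, 791 ± 39.8 units, the helicase subunit Mcm7 469 ± 38.3 units and the sliding clamp Pcna 367 ± 42.4 units. Tyms†, Ccne2†, Ung and Slbp were not detected, and Gins3 passed on 2 arrays. Of the G2 and M phase list 8 of 18 genes were detected (44.4%, beside 40.2% of all named genes) with a median of 283 units. Cenpa, the centromeric histone, was the brightest at 732.9, 701.8 and 828.1 units. Anln, Nusap1, Ccnb1, Birc5, Plk1 and Cdc20 lay between 258 and 354 units. The proliferation marker Mki67 read 202.8, 221.7 and 234.9 units, at rank 2787 of 3267. Bub1, Ube2c, Foxm1, Cks1b†, Cks2†, Espl1†, Nek2† and Cdca8 were among the 9 not detected, and Kif4 passed on 2 arrays.

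By contrast, the cell cycle inhibitor Cdkn1a (NCBI gene 12575), which encodes p21 and is a classical p53 target after DNA damage, read 9715, 9114 and 10238 units at rank 93. Zmat3, a p53-induced RNA-binding protein, averaged 2915.5 ± 345 units and cyclin G1 (Ccng1) 2621 ± 11.0 units. Glb1, the lysosomal beta-galactosidase whose activity is used to stain senescent cells, averaged 2330.2 ± 160.0 units. Of the whole list of p53 targets and inhibitors 9 of 15 were detected, and those after the first 4 were dim: Gdf15, Aen, Xpc and Tnfrsf10b lay between 195 and 287 units. Mdm4†, Cdkn1b, Rrm2b†, Gtse1, Apaf1 and Hmga2† were not detected. Dividing fibroblasts were not analysed here, so the arrays do not show whether these levels differ from those before inactivation.

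Metabolic genes were widely detected. Glycolysis genes were detected for 19 of 23 members, with Gapdh at 11077 ± 946, Tpi1 at 4909.6 ± 267, Pkm at 4585 ± 398, Pgk1 at 3461 ± 221 and Ldha at 2886 ± 254 units. The hypoxia factors Hif1a† and Arnt†, and Ero1a†, were not detected by their 2-zero probes, and Pfkp† passed on 1 array. Cholesterol and fatty acid synthesis genes were detected for 20 of 27 members. The desaturase Scd2 read 8810.1, 9431 and 10373 units, and Hmgcs1, an early enzyme of the sterol pathway, 7141, 7549.6 and 7717 units. Fatty acid synthase (Fasn) averaged 2698 ± 125 units and Acly, which makes its acetyl-CoA, 2658 ± 209 units. Srebf1, Acsl1, Acsl3, Ggps1† and Sc5d† were not detected, and Insig1† passed on 1 array. Translation factors were detected for 28 of 33 members, with Eef1b2 at 12764 ± 184 and the poly(A)-binding protein Pabpc1 at 12378.5 ± 647 units. Eef2, which moves the ribosome along the mRNA, read 9810.5, 6738 and 10693 units and was lowest on control replicate 2.

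Genes of stress protection were bright as well. Among antioxidant, metal and iron genes 12 of 14 were detected with a median of 3739 units. Beside Ftl1 stood the metallothionein Mt1 at 16775, 18017 and 18585 units, peroxiredoxin 1 (Prdx1) at 14155 ± 783 units and the ferritin heavy chain Fth1 at 10729 ± 1142 units. Heat shock and cytosolic chaperones were detected for 14 of 17 members, with Ppia, a prolyl isomerase, at 16211 ± 371 units and Hsp90ab1 at 6111 ± 603 units. Of the endoplasmic reticulum list 6 of 9 were detected. Xbp1, a transcription factor of the unfolded protein response, averaged 3291 ± 281 units and the chaperone Hspa5 623 ± 46.1 units. Cebpb read 2351, 2154 and 3454 units and was highest on control replicate 3. Canx† and Ern1† were not detected by their 2-zero probes, and Dnajb9† passed on 1 array.

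Transcription factors of pluripotent cells were mostly not detected. Of 15 pluripotency genes 3 were detected, and all 3 belong to the Krüppel-like family, which differentiated cells also use. Klf4 read 899.3, 977.7 and 1099.5 units, Klf2 284.9, 285.4 and 366.2 units and Klf5 203.0, 174.4 and 220.9 units. Nanog, Sox2, Zfp42, Myc, Dppa2†, Dppa3, Dppa4 and Tdgf1† were not detected, with mean signals of 79.9 units for Myc, 91.1 units for Sox2 and 119.7 units for Nanog. Mesenchymal and limb factors were detected for 10 of 28 genes (35.7%, below the 40.2% of all named genes). Tcf4 averaged 2401 ± 331 units, and Id3, Zeb1, Shox2 and Scx, the tendon factor scleraxis, 856.5 ± 105, 711.5 ± 132, 461 ± 99.9 and 441 ± 34.5 units. Foxp1, Zeb2 and Prrx1 were the other members among the brightest 8. Lhx9 and Wt1 passed on 2 arrays, and Tbx1†, Tbx5†, Tbx15, Tbx18†, Pitx1, Runx2 and Runx3 were among the 16 not detected.

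Hox genes, which mark position along the body axis, were detected for 5 of 16 members (31.25%, beside 40.2% of all named genes). Hoxd8 read 714.9, 662.8 and 787.2 units and Hoxa7 518.5, 469.4 and 544.9 units. Hoxb2, Hoxd4 and Hoxc8 averaged 325, 257 and 169 units. The 5' members Hoxa13, Hoxb13†, Hoxd11, Hoxd12 and Hoxd13, which pattern the distal limb and tail, were not detected, nor were Hoxa3, Hoxa9 and Hoxb7 among others. Immediate early genes, which respond to serum and growth factors within minutes, were detected for 8 of 13 members (61.5%, beside 40.2% of all). Klf6 averaged 2789 ± 210.1 units, Fosl2 1076 ± 91.7 units, the matricellular gene Ccn1 834 ± 33.3 units, Junb 573 ± 74.0 units and Egr2 194 ± 13.7 units. Egr3†, Nr4a1, Nr4a2† and Nr4a3† were not detected. Among sex-linked transcripts the Y-linked Eif2s3y read 486.5, 491.7 and 508.5 units and Kdm5d 166.5, 186.7 and 194.4 units, and Xist, the RNA of the inactive X chromosome, 278.2, 337.4 and 319.2 units. All 3 were read by 2-zero probes, and Ddx3y† and Uty were not detected. The labels give no sex for these cells.

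**Figure D3:**
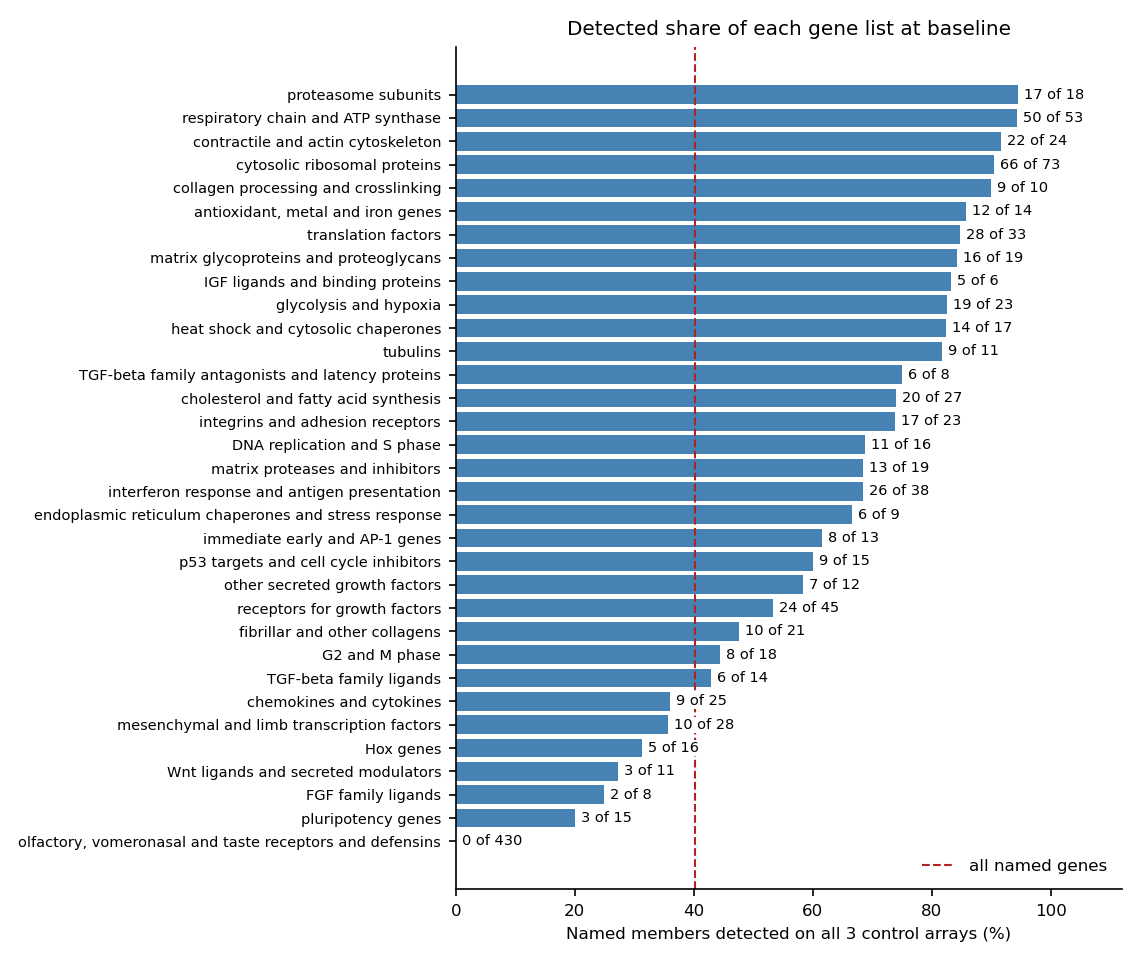
Bars give the percentage of the named members of each gene list that were detected on all 3 control arrays, with counts beside them, and the dashed line marks the 40.2% of all 8131 named genes. The proteasome, respiratory chain, cytoskeleton, ribosome and collagen processing lists stand at 90% or above, FGF ligands (2 of 8) and pluripotency genes (3 of 15) near the bottom, and sensory receptors and defensins at 0 of 430.

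The 3 arrays were closely alike in the detected probes. Pearson's r of the log2 deposited signals across the 10762 detected probes, which are not independent replicates, was 0.996 between control replicates 1 and 2, 0.995 between 1 and 3 and 0.993 between 2 and 3. For the spread of single probes the signals were background-corrected by normexp, quantile-normalised over the 3 arrays and taken to log2. The SD over the 3 arrays then had a median of 0.086, with 0.032 at the 10th percentile and 0.175 at the 90th. At this setting the spread depended little on brightness. The median SD was 0.083 below 200 units, 0.092 between 200 and 500, 0.083 between 500 and 2000 and 0.075 above 2000 units. The offset of 50 damps the log2 spread of dim probes, and brightness bands were not compared under other settings. Pairs of arrays differed by over 1.5-fold in 11 probes (control replicates 1 and 2), 37 probes (1 and 3) and 81 probes (2 and 3).

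A range over 2-fold between the arrays was found in 11 of 10762 detected probes (0.102%). Of these, 6 had a name: 2 probes of Ifit3, and 1 each of Ifi205, Igtp, Irgm2 and Jpt1. All of the named genes except Jpt1 are known to be induced by interferons. In 9 of the 11 probes control replicate 3 was the farthest from the others, and in 8 of these 9 it was the highest. Leaving out control replicate 3 left 1 such probe and leaving out control replicate 2 left 4, so these 2 arrays set the count. Ifi205, which was named because it is among the 11, read 213.2, 162.1 and 333.1 units.

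**Figure D4:**
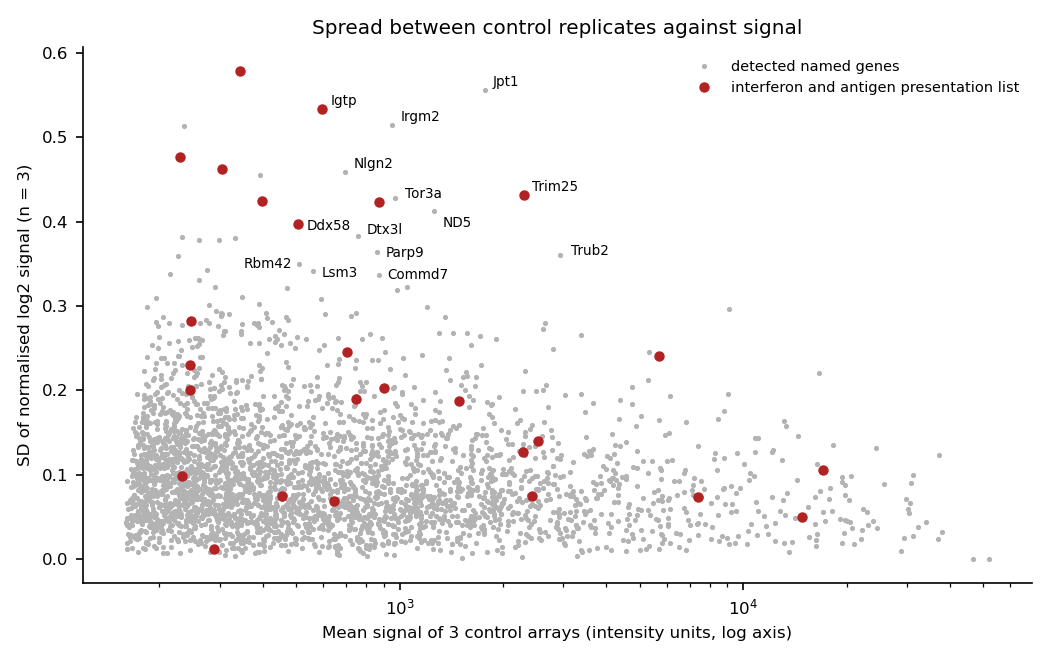
Each point is a detected named gene at its mean signal (intensity units, log axis) and the SD of its normalised log2 signal over the 3 control arrays, with members of the interferon and antigen presentation list in red and the most variable genes of at least 500 units labelled. Most genes lie below an SD of 0.2 at every brightness, and several red points, among them Igtp, Trim25 and Ddx58, lie far above it.

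Among the 1588 detected genes of at least 500 units, the 15 with the largest SD included Jpt1, Igtp, Irgm2, Nlgn2, Trim25, Tor3a, ND5, Ddx58, Dtx3l, Parp9, Trub2, Rbm42, Lsm3 and Commd7. Control replicate 3 was the highest in 11 of them, control replicate 2 in 3 and control replicate 1 in 1. Jpt1 was the gene highest on control replicate 1 after normalisation. It read 2098, 1033 and 2176 units, with control replicate 2 alone low. Irgm2, an immunity-related GTPase, read 851.0, 612.8 and 1392 units, and Tor3a, which is known to respond to interferon, 812.4, 701.9 and 1397 units. Dtx3l and Parp9 form a complex in the response to interferon. Dtx3l read 605.2, 606.3 and 1058 units, and Parp9 read 734.1, 662.8 and 1191 units. These 4 genes share the order of the interferon genes described below, with control replicate 3 the highest. Nlgn2, a synaptic adhesion protein, read 636.9, 474.0 and 976.9 units. Trub2, a pseudouridine synthase of mitochondria, read 2894, 2065 and 3842 units, and Rbm42 read 530.3, 370.1 and 634.0 units. In Rbm42, as in Jpt1, control replicate 2 was the farthest from the others. The other 3 genes were lowest on control replicate 3. ND5, a complex I subunit, read 1256, 1533 and 1000.3 units, Lsm3, of the splicing machinery, 603.4, 619.5 and 461.8 units, and Commd7 937.9, 960.9 and 722.3 units.

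The 10 genes with the smallest SD were Zc2hc1a, Hras, Adamts5, Csk, Psenen, Sfpq, Ndufs3, Sdc2, Rpl41 and Ubb. For Rpl41 and Ubb an SD of 0 follows from the method, since quantile normalisation gives the same value to probes of the same rank. Hras, a small GTPase of growth factor signalling, read 637.4, 633.5 and 716.2 units, and Sfpq, a splicing factor, 777.1, 763.3 and 874.5 units. In both, control replicate 3 was brighter before normalisation, as it was for the detected probes in general, whose median signal was 392.65, 387.2 and 431.1 units on the 3 arrays.

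Interferon response and antigen presentation genes had the largest median SD of all lists examined. Interferons bind their receptors and activate transcription factors such as Stat2 and Irf9, which bind interferon-stimulated response elements near target genes and switch on antiviral effectors and the machinery that shows peptides on MHC class I. Of 38 members with a named probe 26 were detected, Ifi47 passed on 2 arrays, and 11 were not detected, among them Mx1, Oas3, Dhx58†, Gbp2, Gbp4†, Gbp6 and Iigp1. Control replicate 3 was the highest of the arrays for 20 of the 26 detected genes, where 33.2% of all detected named genes were highest on it. For 12 of the 26 it exceeded both other arrays by 0.25 on the log2 scale, against 2.6% of all detected named genes. Control replicate 2 was the lowest for 15 of the 26, against 34.6% of all. The median difference of control replicate 3 from the mean of the other two was 0.31 on the log2 scale in the list and -0.003 over all detected named genes. The median SD was 0.201 in the list and 0.086 over all. Under each of 4 other corrections 20 of the 26 genes were again highest on control replicate 3, beside 33.2% of all. All of these but the scaling to the same median end in quantile normalisation, as the main setting does. They keep the order of probes within an array, so the count could not change under them. In the deposited signals 24 of the 26 were, but so were 73.9% of all detected named genes. The median deposited signal of detected probes was 431.1 units on control replicate 3, beside 392.6 and 387.2 units on control replicates 1 and 2.

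The sequences below are the 250 bases before the transcription start of 3 of the detected genes that stood highest on control replicate 3 and hold the response element core in this window, and of Irf7, which stood as high and holds none. They are RefSeq sequences of the mouse assembly GRCm38.p6, written 5′ to 3′ on the strand of the gene, and capitals mark matches on either strand to the core, which reads GAAA, any 2 bases and GAAA again. Ifit3 lies at chr19:34583279-34583528 on the plus strand, with matches that begin 156 and 122 bases before the start. Igtp lies at chr11:58199306-58199555 on the plus strand, with 1 match that begins 34 bases before the start. Oas1a lies at chr5:120907526-120907775 on the minus strand, with 2 overlapping matches that begin 20 and 14 bases before the start. Irf7 lies at chr7:141266425-141266674 on the minus strand.
Ifit3: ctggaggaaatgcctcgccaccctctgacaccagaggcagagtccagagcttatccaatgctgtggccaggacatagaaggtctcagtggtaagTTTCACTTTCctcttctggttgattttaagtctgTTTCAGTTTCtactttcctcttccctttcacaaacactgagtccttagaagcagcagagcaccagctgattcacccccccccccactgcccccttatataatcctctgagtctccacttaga
Igtp: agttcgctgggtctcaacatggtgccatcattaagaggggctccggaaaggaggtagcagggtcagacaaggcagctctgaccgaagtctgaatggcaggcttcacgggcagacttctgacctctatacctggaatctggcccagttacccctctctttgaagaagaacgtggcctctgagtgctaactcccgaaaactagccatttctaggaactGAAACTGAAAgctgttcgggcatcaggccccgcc
Oas1a: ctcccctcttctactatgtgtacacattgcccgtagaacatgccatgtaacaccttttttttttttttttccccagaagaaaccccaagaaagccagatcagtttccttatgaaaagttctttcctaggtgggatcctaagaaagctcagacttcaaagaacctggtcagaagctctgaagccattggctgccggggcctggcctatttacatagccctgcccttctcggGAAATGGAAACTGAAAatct
Irf7: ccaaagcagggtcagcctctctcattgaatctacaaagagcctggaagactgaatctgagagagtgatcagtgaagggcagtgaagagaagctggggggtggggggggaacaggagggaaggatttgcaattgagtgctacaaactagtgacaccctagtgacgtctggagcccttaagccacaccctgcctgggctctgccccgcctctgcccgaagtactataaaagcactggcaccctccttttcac

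Ifit3, an antiviral protein with tetratricopeptide repeats, read 301.1, 220.5 and 509.7 units on control replicates 1, 2 and 3, and its normalised level on control replicate 3 was 1.88 times that of the other two. Irf7, the transcription factor that amplifies interferon production, read 191.5, 169.9 and 325.5 units (1.76 times). Igtp, an immunity-related GTPase that acts on vacuoles of intracellular parasites, read 543.0, 378.6 and 863.0 units (1.74 times). In all 3, control replicate 3 was the highest and control replicate 2 the lowest. Oas1a, a sensor of double-stranded RNA, read 321.8, 307.9 and 561.3 units (1.66 times), the RNA sensor Ddx58, also called RIG-I, 390.5, 423.6 and 707.7 units (1.60 times) and its ubiquitin ligase Trim25 1898, 1688 and 3324 units (1.67 times). Mx2, an antiviral dynamin-like GTPase, read 277.9, 212.0 and 419.9 units (1.64 times). In these 4 genes control replicate 3 stood above both other arrays. Irf9, a DNA-binding partner of Stat2, read 623.6, 586.2 and 902.3 units (1.34 times).

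Other members showed smaller differences between the arrays. The antigen presentation genes, set apart here after their values were seen, lay between 0.91 times for Psme2 and 1.26 times for Psmb10. Further interferon genes lay in the same range, such as Irf1 (1.03 times) and Adar (1.25 times). B2m, the invariant chain of MHC class I, read 14908, 14689 and 15039 units at rank 57 (0.94 times), and the class I gene H2-K1 1237, 1492 and 1754 units (1.14 times). The proteasome activator subunit Psme1 read 2329.5, 2231 and 2741.5 units (1.09 times), and Psme2 835.0, 653.4 and 758.0 units (0.91 times). The membrane proteins Ifitm1 and Ifitm2, which restrict the entry of viruses, were the brightest members beside B2m, at 17051 ± 1919 and 7372 ± 676 units (1.11 and 1.08 times), and Ly6e, a further membrane protein of this response, read 4919, 4981 and 7204 units (1.33 times). Stat3, which serves cytokines of the interleukin 6 family, read 2278, 2342 and 2244 units (0.86 times). MHC class I genes resemble each other closely, and which of them the probes of H2-K1 and H2-Q2 bind was not tested. The summed deposited signal of the 12 named leukocyte markers was 1633, 1635 and 1714 units on control replicates 1, 2 and 3. With 1 of the 12 detected, most of this sum came from probes not told apart from empty ones. The sum of the 11 fibroblast markers was 72883, 74320 and 86661 units. Control replicate 3 was brighter in general before normalisation. Whether the arrays differed in leukocyte RNA was not tested. The labels do not say whether the arrays differed in culture, extraction or hybridisation.

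**Figure D5:**
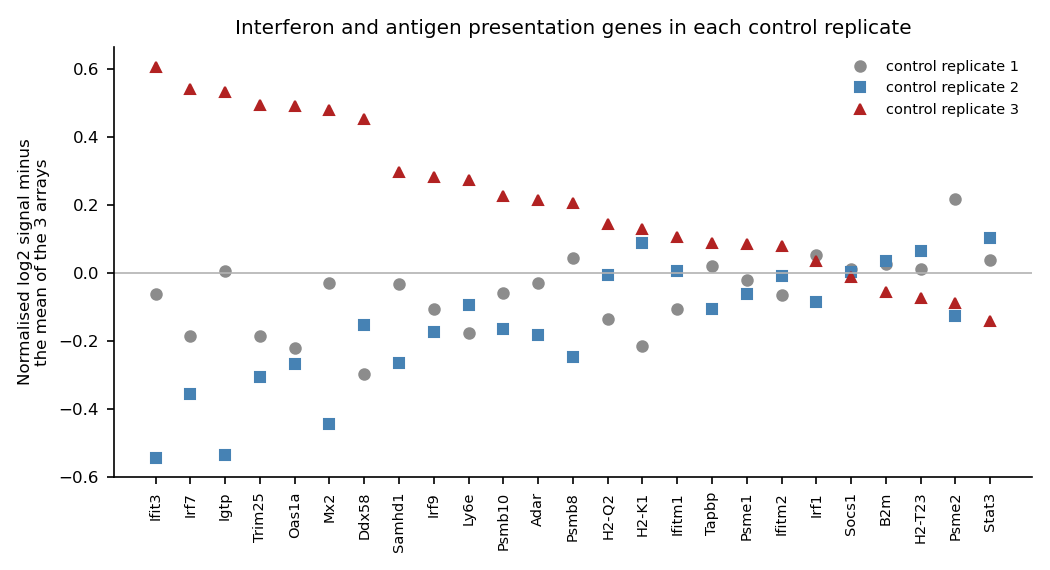
For 25 detected genes of the interferon and antigen presentation list, the points give the normalised log2 signal of each control array minus the mean of the 3, sorted by control replicate 3. Control replicate 3 (triangles) lies highest in 19 of these 25 genes, by the widest margins from Ifit3 to Ddx58, while B2m, H2-T23, Psme2 and Stat3 at the right do not show this order.

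Promoter windows of 300 bases, from 250 before to 50 after the start, were at hand for 23 of the 26 detected genes. The core (GAAA, any 2 bases, GAAA) occurred on either strand in 9 of the 23 (39.1%), in 85 of 2650 windows of all detected named genes (3.21%) and in 1131 of 32851 windows in all (3.44%). The 9 genes were Ifit3, Igtp, Oas1a, Ddx58, Psme1, Ifitm2, Socs1, B2m and H2-T23. They span nearly the whole range of differences between the arrays, as those with the core include both Ifit3 (1.88 times) and H2-T23 (0.93 times), and those without it include Irf7 (1.76 times) and Stat3 (0.86 times). A match is a description of the letters and does not show binding.

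Windows of detected and undetected genes differed in their content of CpG, the dinucleotide that is dense in the promoters of widely used genes. The median was 23 CpG in 2650 windows of detected named genes and 11 in 3489 windows of genes detected on none of the arrays. Over all 32851 windows it was 7, so both named groups lay above the windows at large. A start with C followed by at least 4 pyrimidines, the form of the terminal oligopyrimidine motif of ribosomal protein genes, was found in 9 of 49 windows of detected ribosomal proteins (18.4%) and in 10 of 76 windows of genes at ranks 1 to 100 (13.2%). It was found in 92 of 2574 windows of genes at lower ranks (3.57%) and in 2.51% of all windows. The ribosomal group and ranks 1 to 100 overlap, since ribosomal proteins took 20 of the first 30 ranks and 27 of ranks 31 to 100. Bright genes without the ribosomal proteins were not counted apart. The table gives 1 annotated start per window, which need not be the start used in these cells.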

How the data were processed

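Per the labels, RNA of 3 control replicates was hybridised to one array each. Per the file headers and the submitters' processing notes, the deposited signals are mean bead intensity values from BeadStudio 1.0, here found to be neither background-subtracted nor normalised. Per the file headers, each probe has a detection score, a fraction from 0 to 1 that ranks it among the negative controls of its array. A further table of scaled intensity values, deposited by the authors, served only as an alternative for the ranking.

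Levels and ranks are means of the 3 deposited signals. A gene is represented by its brightest probe, and it counts as detected if any of its probes was detected on all 3 arrays. Names come from probe identifiers read as NCBI gene numbers, matched with RefSeq annotation of GRCm38.p6, and 9 probes were named by RefSeq accession. For the spread, signals were corrected with normexp (offset 50), quantile-normalised over the 3 control arrays in limma 3.58.1 (R 4.3.3) and taken to log2. Neqc was an alternative. The spread computation was tried on simulated arrays with a single preset spread, and only the brighter detected probes were examined. Its result does not cover dim probes. Lists were described with Python 3.11.15 and pandas 2.3.3.

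The members and the 34 gene lists and 14 marker lists were chosen with earlier results of these data known. Genes named are the brightest 30, the 15 most and 10 least variable of at least 500 units, up to 8 detected and 8 undetected members per list, members detected on 1 or 2 arrays, and genes whose promoter is shown. Further interferon and mitochondrial genes were named after their values were seen. Some genes that the rule selects are not reported here by name, although counts and medians over a list include them. The number of arrays limits the precision, and there is no test between groups.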

Additional observations from a re-analysis of the deposited data

How the results depend on the processing

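The count of detected probes was 12681 with a minimum detection score of 0.95 and 9032 with a stricter one, against 10762, and detected named genes numbered 3667 and 2870, against 3267. Counting a gene only where all of its probes were detected gave 2766 genes. Naming genes only from probes with 1 leading zero or an accession, an alternative chosen after seeing the data, left 2038 detected genes, since fewer genes then have a probe. Of the brightest 50 named genes, 47 to 50 stayed among the brightest 50 under the 6 alternatives run. The median SD was 0.054 with neqc, 0.080 without background correction and 0.103 in the deposited signals, against 0.086. Probes with a range over 2-fold numbered 7 without background correction, 10 to 16 under the 5 other settings run on all 3 arrays and 1 to 8 when each replicate was left out, against 11. In the deposited signals without normalisation, also chosen after seeing the data, control replicate 3 minus the mean was 0.013 for other secreted growth factors, 0.079 for glycolysis, 0.034 for ribosomal proteins and 0.053 for the respiratory chain on the log2 scale, where normalised values were -0.076, -0.021, -0.042 and -0.048. Control replicate 3 was brighter before normalisation. Of 175 list means under alternatives, 24 changed sign, 15 of them in the deposited signals and 6 with neqc. For the 4 given above control replicate 3 lay farthest from the mean of the 3 arrays after normalisation. The farthest of 3 arrays always differs from their mean by at least their SD. A comparison with that spread therefore cannot show a shift beyond noise. No paired analysis was possible because 1 group was described. Signal over background limits genes near 160 units.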
